A study of Mus musculus with 384 samples.

Results

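Windows of peaks with several summits are the parts of the accessible genome in which the peak caller found more than 1 local maximum inside 1 continuous peak and in which at least 2 of these maxima were kept. They were chosen by their names, which record the authors' summit calls: a window belonged to them if its peak number occurred in 2 or more rows of the deposited list, where lettered suffixes (a, b, c and so on) distinguish the summits of a peak. Of 50000 windows of 500 bp, 1832 (3.66%) met this rule, and they came from 862 of 49030 peaks (1.76%). Among those peaks, 763 had 2 kept windows, 93 had 3, 3 had 4 and 3 had 5, and in all 862 the letters ran without a gap from a in the order of position.

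The list came from cells of a breast tumor of an MMTV-PyMT mouse, whose mammary epithelium expresses the middle T oncogene of polyoma virus, measured by Pi-ATAC, which joins single-cell transposase accessibility with protein staining. Fixed cells carried stains for CD45, a surface phosphatase found on leukocytes, and EpCAM, which epithelial cells use for adhesion, and were sorted into 4 plates of 96 wells. The labels place all wells in 1 group without a stain result, age or treatment for any well, and the study's methods describe the stained cells as taken from a single mouse tumor. Peaks were called on the aggregated cells, so there was no replicate, no test was possible, and more cells with an open site cannot be told apart from more cuts per cell. No peak height, q value or read count accompanied the windows, so signal and depth could not be compared between peaks with several summits and others.

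Transposase inserts sequencing adapters where DNA is free of nucleosomes, and a summit marks the position where insertions pile up most. Active promoters carry an open stretch around the transcription start site, often within a CpG island, a stretch rich in the dinucleotide CG that is usually unmethylated, and many promoters face a second gene transcribed in the opposite direction. Away from promoters, open sites are mostly enhancers bound by factors such as AP-1, the dimer of Fos and Jun proteins. Well-positioned nucleosomes commonly flank such open stretches, so a wide accessible region can hold several open sites in a row.

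Stretches from 9 of these windows show the features that the results below turn on, each given as the central 200 bases of its window on the plus strand of mm9 (NCBIM37 sequence). In the first 6, capitals mark a consensus word on either strand. They are the NF-Y word CCAATCA in the window a of the Klf6 promoter peak (chr13:5860445-5860644), the SP and KLF word GGGGCGGGG in window b of Pgk1 (chrX:103382203-103382402), the cyclic AMP response element TGACGTCA in window b of Bnip3l (chr14:67627722-67627921), and the AP-1 word TGAGTCA in window b of a peak upstream of S100a11 (chr3:93310252-93310451) and in window a of an intronic peak of Pde4a (chr9:20972696-20972895). The window near Eef2k (chr7:127978959-127979158) has in capitals GGTTCGANT, the start of the B box, the internal promoter element of tRNA genes. S100a11 is shown because its 200 bases held 3 copies of the AP-1 word.
Klf6 a: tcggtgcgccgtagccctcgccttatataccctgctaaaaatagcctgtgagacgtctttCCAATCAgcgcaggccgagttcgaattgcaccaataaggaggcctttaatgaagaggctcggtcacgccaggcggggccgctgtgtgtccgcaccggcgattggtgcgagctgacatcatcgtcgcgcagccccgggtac
Pgk1 b: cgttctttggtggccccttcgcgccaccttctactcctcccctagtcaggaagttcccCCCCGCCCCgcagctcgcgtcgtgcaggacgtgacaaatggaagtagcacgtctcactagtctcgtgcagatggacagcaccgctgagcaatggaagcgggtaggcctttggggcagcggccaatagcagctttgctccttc
Bnip3l b: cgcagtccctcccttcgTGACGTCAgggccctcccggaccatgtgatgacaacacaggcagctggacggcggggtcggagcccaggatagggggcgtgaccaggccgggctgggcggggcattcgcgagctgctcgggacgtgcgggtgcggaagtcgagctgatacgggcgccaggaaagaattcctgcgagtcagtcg
S100a11 b: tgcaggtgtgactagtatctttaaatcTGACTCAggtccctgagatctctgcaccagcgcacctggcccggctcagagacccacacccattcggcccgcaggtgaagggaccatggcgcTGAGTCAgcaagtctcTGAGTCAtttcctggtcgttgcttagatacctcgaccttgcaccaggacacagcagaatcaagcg
Pde4a a: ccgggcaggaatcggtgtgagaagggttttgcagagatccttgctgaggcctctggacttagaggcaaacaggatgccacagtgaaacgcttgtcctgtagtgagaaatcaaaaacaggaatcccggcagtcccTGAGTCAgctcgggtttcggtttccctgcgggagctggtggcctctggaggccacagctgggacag
Eef2k b: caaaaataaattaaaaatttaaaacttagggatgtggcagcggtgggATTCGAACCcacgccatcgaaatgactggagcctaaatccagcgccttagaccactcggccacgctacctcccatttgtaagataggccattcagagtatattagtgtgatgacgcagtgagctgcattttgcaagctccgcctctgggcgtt

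The remaining 3 stretches are successive windows upstream of Dusp6 (chr10:98724387-98724586, chr10:98724625-98724824 and chr10:98724935-98725134), shown for their CG dinucleotides, which are in capitals. They held 18, 18 and 9 CG, and their summits lay 1378, 1140 and 830 bp upstream of the start site.
Dusp6 a: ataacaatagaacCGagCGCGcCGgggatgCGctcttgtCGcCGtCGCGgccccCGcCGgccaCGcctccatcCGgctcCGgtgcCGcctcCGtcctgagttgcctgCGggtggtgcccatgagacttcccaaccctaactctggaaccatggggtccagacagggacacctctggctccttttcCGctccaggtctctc
Dusp6 b: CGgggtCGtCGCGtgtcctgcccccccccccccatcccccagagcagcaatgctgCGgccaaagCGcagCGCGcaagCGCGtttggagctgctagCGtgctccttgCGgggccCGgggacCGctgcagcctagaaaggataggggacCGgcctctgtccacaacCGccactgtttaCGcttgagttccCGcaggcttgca
Dusp6 c: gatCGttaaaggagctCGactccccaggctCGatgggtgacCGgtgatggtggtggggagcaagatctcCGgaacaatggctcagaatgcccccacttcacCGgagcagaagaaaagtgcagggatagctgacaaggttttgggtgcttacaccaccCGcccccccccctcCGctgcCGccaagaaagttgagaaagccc

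Summits of 1 peak lay close together. Across 970 pairs of neighboring summits the median distance was 360 bp, with quartiles at 276.25 and 486.75 bp, a minimum of 54 bp and a maximum of 1350 bp. Distances from 200 to 399 bp made up 53.4% of pairs (518), 10 pairs were closer than 150 bp, and 2 were more than 1000 bp apart. The spacing was alike at promoters and away from them, with a median of 357.5 bp in peaks away from promoters (150 pairs) and a median 3.5 bp longer in peaks at promoters (820 pairs). Because each window spans 500 bp, 753 pairs (77.6%) were close enough for their windows to share sequence, and 1457 members (79.5%) overlapped another window, against 4.71% of windows of other peaks. Closeness follows in part from the rule, which takes windows of the same peak, and is given as a description. The smallest distance at which the peak caller separates summits was not examined, and no cause of the spacing was tested.

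**Figure D1:**
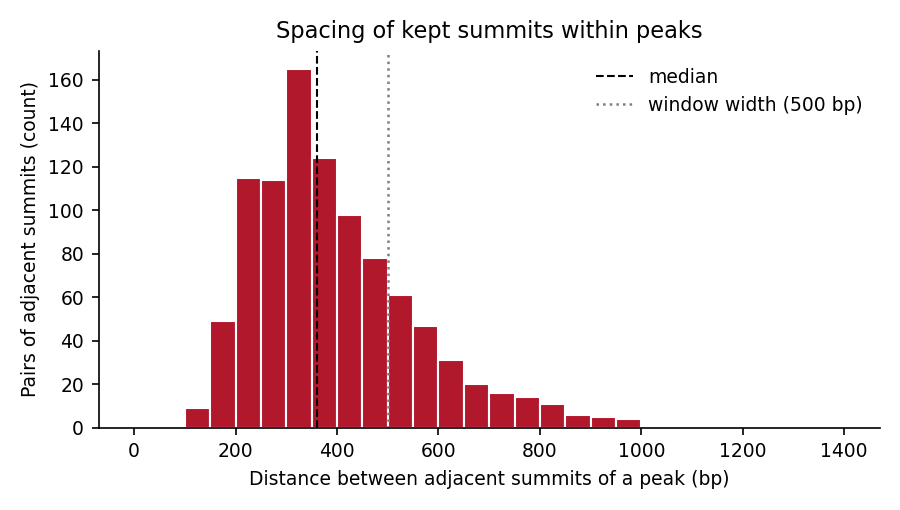
Distance between adjacent kept summits of the same peak in bp (horizontal axis, bins of 50 bp) against the number of pairs (vertical axis), for 970 pairs in 862 peaks. The dashed line is the median of 360 bp and the dotted line the window width of 500 bp; 753 pairs lie below the window width.

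The rule's threshold separates peaks with 2 kept windows from 8 windows that carry a letter but whose companion summits were not in the list. Just inside, the 763 peaks with 2 windows had a window at a promoter in 84.3% of cases and a median GC content of 60.4%. Just outside, 7 of the 8 lone lettered windows were at promoters, those of Gtf3c6, AC152453.1, Rhob, Hist1h1c, 2210009G21Rik, Pdcd10 and Tsen34, and the other lay in an intron of Impact. Their GC content ran from 47.0% to 65.8% and their CpG count from 26 to 48. The other 48160 windows carried no letter.

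Where these windows lay relative to genes was asked next. They were concentrated at promoters, far more than the rest of the list. Of the 1832 members, 1518 (82.9%; exact 95% interval 81.1% to 84.6%) were centered within 1 kb of an annotated transcription start site, against 24.5% of the 48168 windows of other peaks and 26.6% of all windows. Of the members, 5.95% lay in introns, 0.873% (16) in exons and 10.3% between genes, where windows of other peaks had 35.1%, 3.75% and 36.7%. In members the nearest start site was at a median of 0.195 kb, in other windows at 9.61 kb. Intervals of shares here and below are exact binomial (Clopper-Pearson) and cover counting error only, and they take overlapping windows as separate.

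The promoter share was higher in members on 20 of 20 chromosomes, from 67.4% to 94.3% per chromosome against 17.0% to 35.4% for other windows. Chromosomes 7, 8, 9 and X kept 41.5% to 51.9% of their called peaks in the list, the others 23.6% to 26.5%, and 81.8% of members on the others were at promoters (26.3% of other windows). Counted by peak, 727 of 862 (84.3%; 81.7% to 86.7%) had at least 1 window at a promoter, 81.2% had all of them there, and 15.7% had none. Peaks with 3 or more windows did not stand apart from those with 2, with 84 of 99 (84.8%; 76.2% to 91.3%) against 643 of 763 (84.3%; 81.5% to 86.8%). An annotated untranslated region shared at least 1 bp with 59.6% of members (1091) and a coding sequence with 28.7% (526).

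**Figure D2:**
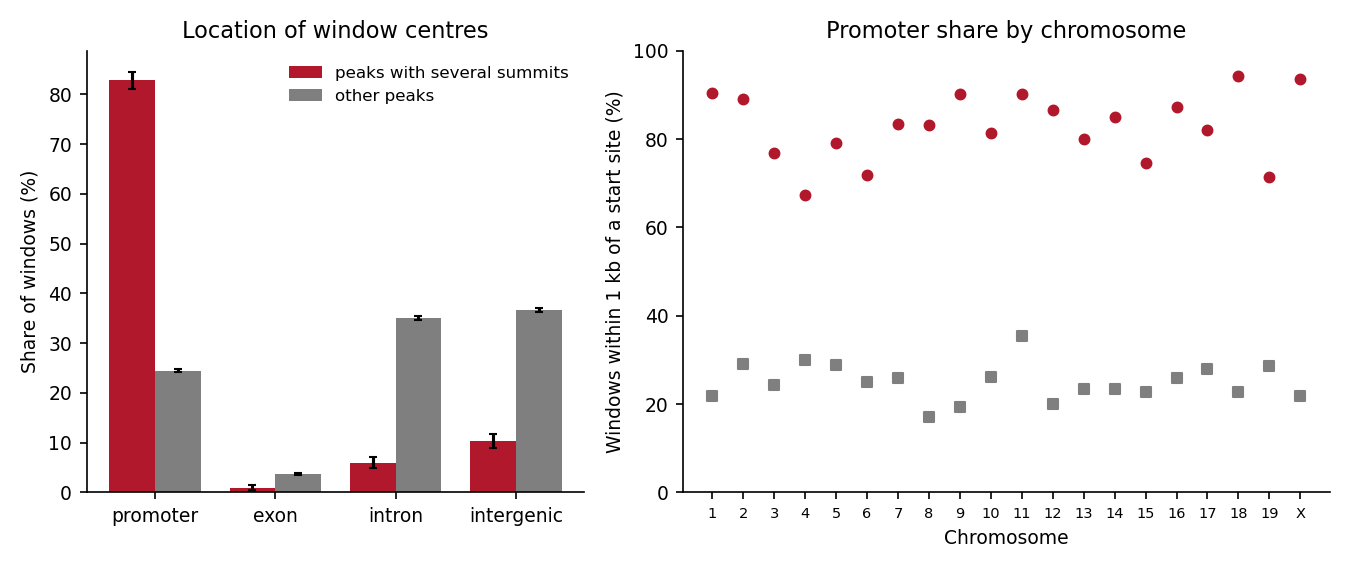
Left, share of windows in percent by location of the window center for peaks with several summits (red, 1832 windows) and other peaks (grey, 48168 windows), with exact 95% binomial intervals as error bars. Right, promoter share in percent (start site within 1 kb) on each chromosome; the red circles lie between 67.4% and 94.3% and above the grey squares (17.0% to 35.4%) on all 20 chromosomes.

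Around protein-coding start sites, members and other promoter windows had nearly the same share within 200 bp of the start and differed on its flanks. Of 1474 members within 1 kb of a protein-coding start site, 60.7% had their center within 200 bp of it, as had 60.5% of 11022 other windows. Inside this span members were lower within 100 bp of the start site, for example 21.1% against 23.38% upstream. From 100 to 200 bp away they were higher, for example 14.45% against 13.48% upstream. Members were more often farther upstream, with 22.8% more than 200 bp upstream against 17.5%, and less often farther downstream, with 16.6% against 22.1%. The lower downstream share came from beyond 500 bp, for example 0.339% against 2.24% at 700 to 800 bp. From 200 to 500 bp downstream members were not lower, with 4.14% against 3.38% at 300 to 400 bp. Beyond 700 bp upstream members were also at lower shares, with 1.02% against 1.43% from 800 to 700 bp.

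**Figure D3:**
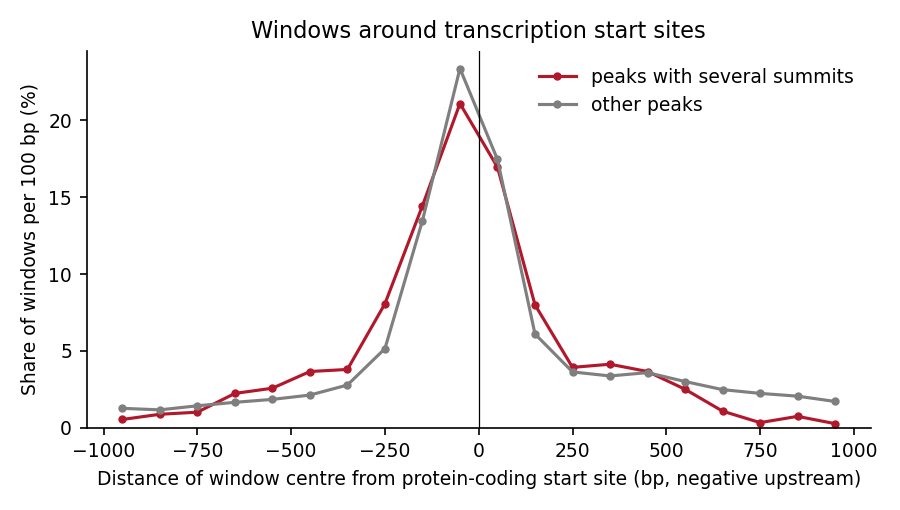
Distance of the window center from the nearest protein-coding start site in bp (horizontal axis, negative upstream) against the share of windows in percent per 100 bp (vertical axis), for 1474 windows of peaks with several summits (red) and 11022 other windows (grey). Both peak in the 100 bp upstream of the start site. The red line lies above the grey from 700 to 100 bp upstream and from 100 to 500 bp downstream.

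Promoters with genes on both strands were more common among them. A protein-coding start site on each strand lay within 1 kb of 290 of the 1474 members (19.7%; 17.7% to 21.8%), of 9.25% of other windows (1020 of 11022) and of 10.5% of all windows. By peak the share was 19.9% (17.1% to 23.1%, 707 peaks). With start sites of any gene type it was 28.0% against 14.5%. At least 2 annotated protein-coding start sites lay within 1 kb of 69.7% of members (1027) and 59.0% of other windows. Examples are the 5-window peak between Mepce, which encodes the capping enzyme of 7SK RNA, and Zcwpw1, and the 3-window peak between Clcn2, a chloride channel gene, and Polr2h, a subunit shared by the RNA polymerases.

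How summits sit around a start site was read from those 44.8% of the 763 peaks with 2 windows in which the same protein-coding start site was nearest to both and within 1 kb of both. In 41.2% of them the summits lay on either side of the start site, in 42.7% both were upstream, and in 16.1% (55 peaks) both were downstream. The nearer summit was a median of 89 bp from the start site and the farther 382.5 bp, and the farther was upstream in 62.9% and downstream in 37.1%.

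The sequence of these windows was rich in G and C. The median GC content was 60.4% in members (quartiles 55.0% and 65.2%) and 49.6% in other windows (45.6% and 54.8%), and the median number of CpG per window was 33 against 7. GC content was higher in members on 20 of 20 chromosomes. The difference was smaller within each location, 2.0 points at promoters (61.4% against 59.4%) and 5.8 points farther away (54.0% against 48.2%). Windows like a CpG island, with more than 50% GC and an observed to expected CpG ratio above 0.6, made up 69.0% of members (66.8% to 71.1%), 15.9% of other windows and 17.8% of all windows. At promoters these shares were 78.1% and 59.0%, and farther away 24.8% and 1.90%.

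Inside a peak, GC and CpG content were mostly higher in the window nearer to the start site. In the same peaks with 2 windows and 1 nearest start site, the nearer window had a median GC content of 63.6% and the farther 58.7%, and the median difference was 4.3 points (quartiles -0.7 and 9.4). The nearer window had more GC in 71.1% of peaks. It had more CpG in 74.0%, fewer in 24.9% (85 peaks) and the same number in 1.17% (4 peaks), with medians of 40 and 30. In the 53 pairs that shared no sequence, the median GC difference was 5.6 points and the nearer window had more GC in 39. Dusp6, which encodes a phosphatase of the ERK kinases and is shown above, went the other way, since the CpG count of its 4 windows was 55, 34, 21 and 28 from the farthest to the nearest.

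**Figure D4:**
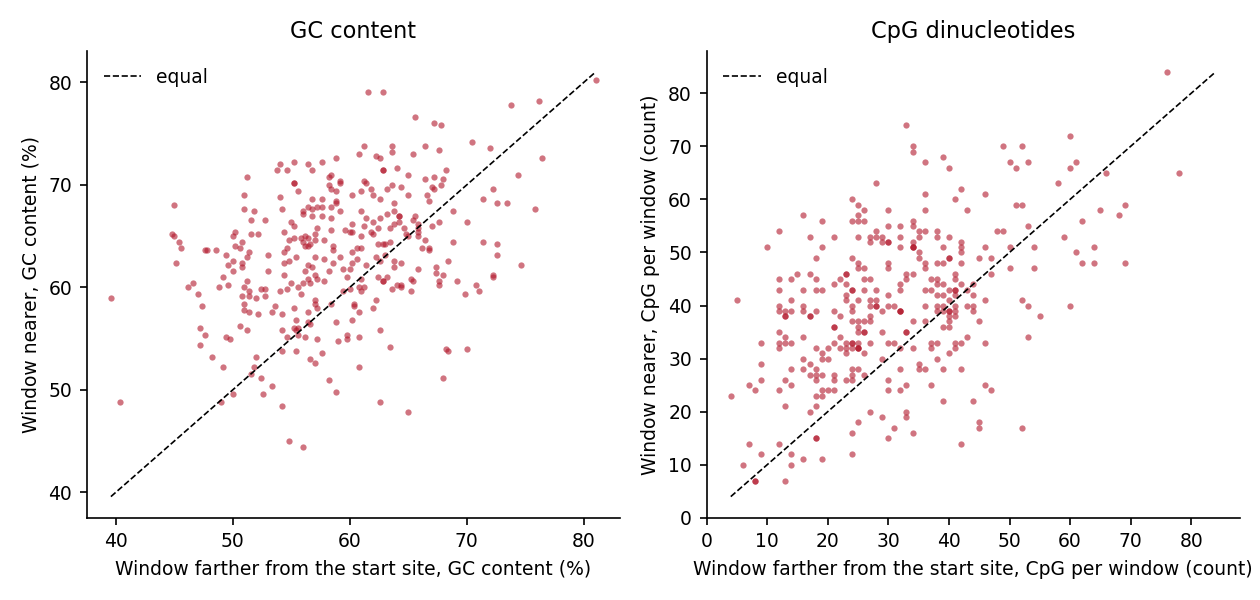
GC content in percent (left) and CpG per 500-bp window (right) of the window nearer to the start site (vertical axis) against the farther window of the same peak (horizontal axis), 1 point for each peak with 2 windows and 1 nearest start site; the dashed line marks equal values. Points lie above the line in 71.1% of peaks for GC content and in 74.0% for CpG.

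Consensus words of transcription factors were counted in each window on both strands. Words of factors that act at CpG-rich promoters were more frequent in members than in other windows. The SP and KLF word GGGGCGGGG was in 25.9% of members (23.9% to 28.0%), in 6.81% of other windows and in 7.51% of all windows. The ETS word CCGGAAG was in 19.0% (17.2% to 20.9%), against 6.84% of other and 7.28% of all windows. NF-Y, which binds the CCAAT box, had its word CCAATCA in 15.3% of members (13.7% to 17.0%), against 6.69% of other and 7% of all windows. These 3 words were more frequent in members on 20 of 20 chromosomes. The same direction held for the NRF1 word GCGCATGCG (3.38%, all windows 0.992%), the YY1 word AAGATGGCG (3.93%, all windows 1.25%), the cyclic AMP response element TGACGTCA (4.31%, all windows 1.37%), the HIF word ACGTGC (15.7%, all windows 8.6%) and the E-box CACGTG (12.6%, all windows 9.43%). The CEBP word TTGCGNAA (2.51%, all windows 0.952%), the PU.1 word GAGGAAGT, of the myeloid factor encoded by Spi1 (5.84%, all windows 4.96%), and the longer CTCF word (1.31%, all windows 1.18%) were also at larger shares in members, for PU.1 and CTCF with intervals that span the share of all windows. HIF and E-box words overlap in CACGTGC, so that their counts are not separate.

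Some words were less frequent in members over all locations. The TATA box word TATAAA was in 8.73% of members (all windows 19.3%), the NFI word TTGGCA in 17.8% (all windows 23.6%) and the RUNX word AACCACA in 6.11% (all windows 11.6%). The AP-1 word TGAGTCA was in 9.93% of members (8.60% to 11.4%), against 13.7% of other and 13.5% of all windows.

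Location changed this picture. Among windows within 1 kb of a start site, SP and KLF stood at 28.9% of members against 20.6% of others, NF-Y at 16.1% against 9.85%, ETS at 20.7% against 17.9% and AP-1 at 6.85% against 7.90%. The E-box stood there at 12.6% of members and 13.3% of others, a small difference whose direction was not tested. When only promoter windows with at least 30 CpG were compared (1007 members, 6062 others), the NF-Y word was still more frequent in members, 16.8% (14.5% to 19.2%) against 11.6% (10.8% to 12.4%), and so was the HIF word, 18.9% (16.5% to 21.4%) against 15.5%. The ETS word was then at 24.1% of members (21.5% to 26.9%) against 25.7%, and the SP and KLF word at 34.3% (31.3% to 37.3%) against 31.5%. This restriction to CpG-rich windows was chosen after the other values had been seen.

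Within promoter peaks the share of stretches with a word was set side by side for the nearer and the farther window. Whether words avoid sharing a peak was not tested. In the 93.9% of the 2-window peaks with 1 nearest start site whose summits were at least 200 bp apart, the central 200 bp were compared, which share no sequence. The NF-Y word was in 40 of the nearer (12.5%) and 18 of the farther stretches (5.61%), and both stretches of a peak held it in 2. The ETS word was in 39 nearer (12.1%) and 20 farther stretches (6.23%), and the SP and KLF word in 57 and 44. The HIF word was in 15 and 27, the NFI word in 21 and 34, and the AP-1 word in 4 and 11.

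**Figure D5:**
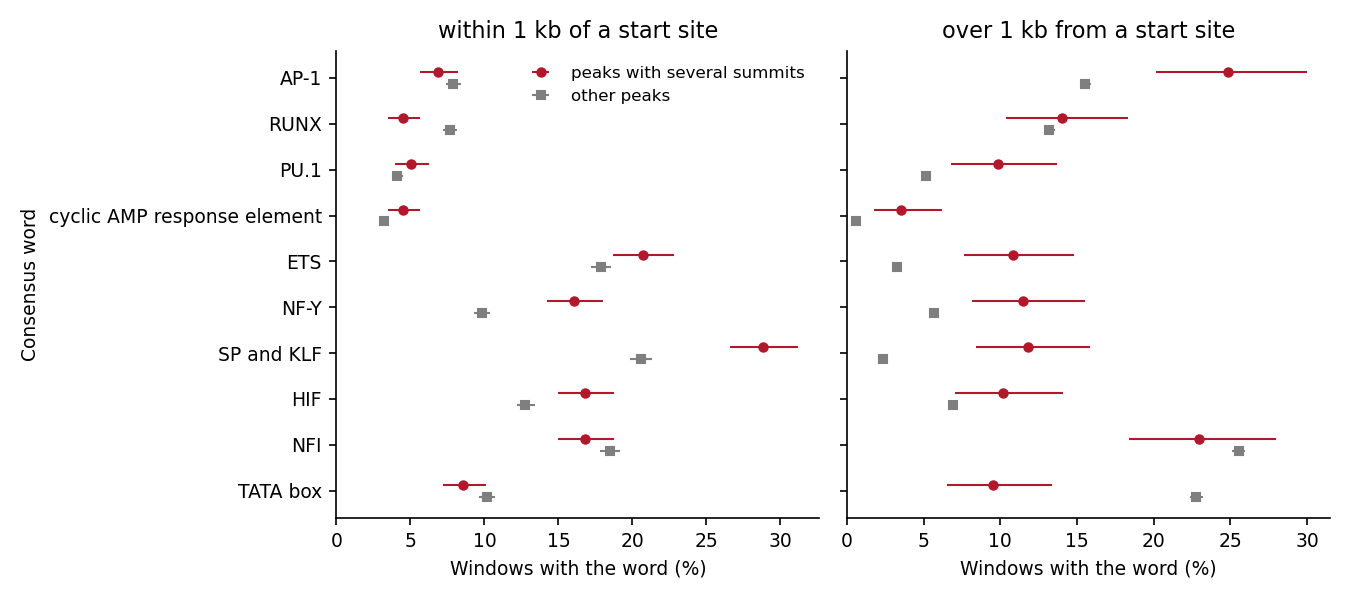
Share of windows in percent that hold each consensus word (horizontal axis, exact 95% binomial intervals) for peaks with several summits (red circles) and other peaks (grey squares), within 1 kb of a start site (left) and farther away (right). The AP-1 word is at 6.85% and 7.90% on the left and at 24.8% and 15.5% on the right.

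The 17.1% of members that lay more than 1 kb from a start site had the AP-1 word more often than other such windows, the reverse of the direction over all windows. It was in 78 such members (24.8%; 20.2% to 30.0%), in 15.5% of 36376 other windows and in 15.6% of all windows at this distance. With 1 window per peak, that with the letter a, the share was 23.9% (37 windows; 17.4% to 31.4%), and without chromosomes 7, 8, 9 and X it was 25.7% of members and 16.5% of others. The share was higher in members on 15 of 20 chromosomes. The PU.1 word was in 9.87% of these members (6.81% to 13.7%) and 5.22% of all such windows, and the RUNX word in 14.0% (10.4% to 18.3%) and 13.2%. The GC content of these members was higher than that of other windows at this distance (above), and the words were also compared by CpG content. Among such windows with at least 30 CpG, the AP-1 word was in 1 of 59 members (1.70%; 0.0429% to 9.09%), 6.21% of 451 others and 5.69% of all, and the PU.1 word in 0 members (0%; up to 6.06%), 4.43% of others and 3.92% of all. Among those with fewer CpG, the AP-1 word was in 30.2% of members (24.6% to 36.2%), 15.7% of others and 15.8% of all, and the PU.1 word in 12.2% (8.41% to 16.8%), 5.19% and 5.24%. With at least 30 CpG both intervals span the shares of other windows, so the direction there cannot be read. This division by CpG count was chosen after the other values had been seen.

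Of the peaks without a window at a promoter, 39.3% (53) had the AP-1 word in at least 1 window and 19 in 2 or more, but their windows mostly overlap and a word in shared sequence is then counted in each. In the central 200 bp of the windows, 32 peaks had the word in at least 1 stretch and 3 in 2 or more. With each site counted once per peak, 79 sites were found and 21 peaks had 2 or more. These peaks cover more sequence than a single window, with a median of 888 bp. Per kb of joined windows they had 0.644 AP-1 sites, against 0.358 in windows of other peaks more than 1 kb from a start site. The peaks of S100a11, a calcium-binding protein gene, and Pde4a, which encodes a cyclic AMP phosphodiesterase, had it in each of their 3 windows, which overlap and held 3 distinct sites at S100a11 and 2 at Pde4a. S100a11 had summits 14298, 14058 and 13860 bp upstream of the start site and Pde4a 2638, 2939 and 3173 bp downstream in an intron. Pde4a is on chromosome 9, among those with a larger kept share. A 3-window peak near Srgn, the proteoglycan gene of leukocyte granules, had the AP-1 word in window a and the RUNX word in window b. The peak upstream of Zfp36, which encodes a factor of messenger RNA decay, had its 3 summits 2733, 2966 and 3835 bp from the start site, with 1 ETS site shared by windows a and b, the PU.1 word in a and the AP-1 word in c, on chromosome 7, again with a larger kept share. In all, 15 such peaks had 3 windows.

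Some of these distant peaks held the tRNA gene element shown above for Eef2k. The word GGTTCGANT was in 10 members more than 1 kb from a start site (3.18%; 1.54% to 5.78%), against 0.253% of other windows (92 of 36376) and 0.278% of all windows at this distance. The 10 windows came from 7 peaks. A 3-window peak between Ict1 and Atp5h on chromosome 11 had it in all 3 windows, which held 3 distinct sites, and a 2-window peak on chromosome 8 had a site of its own in each. At promoters the shares were 0.659% of members and 0.534% of others. Without chromosomes 7, 8, 9 and X, which hold the peaks near Eef2k and on chromosome 8, they were 2.77% and 0.272% at the larger distance. The word was chosen after a window sequence had been seen, nuclear tRNA genes were not analysed here, and with 1 window per peak the share was 1.94% (3 windows; 0.401% to 5.55%).

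Members away from promoters also had more neighbors. Within 10 kb they had a mean of 2.18 windows of other peaks, against 1.02 for other windows more than 1 kb from a start site. At promoters the order was reversed, with 1.12 against 1.32.

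Genes with these windows at their promoters were counted against all genes with a promoter window. Among 9718 protein-coding genes with a promoter window, 852 (8.77%; 8.21% to 9.35%) had a member there. Immediate early and feedback genes, which respond within minutes to growth and stress signals, had the largest share of the 16 lists, 8 of 24 (33.3%; 15.6% to 55.3%) against this background of 8.77%. They were Egr1 and Egr2, zinc finger factors, Klf6 and Klf10, Krüppel-like factors, Zfp36l2, a factor of messenger RNA decay, Dusp5 and Dusp6, phosphatases of MAP kinases, and Myc. Of AP-1 family genes, 3 of 13 (23.1%; 5.04% to 53.8%) had a member, namely Jun, Fosl2 and Atf3. Housekeeping genes had 4 of 13 (30.8%; 9.09% to 61.4%), Actb, Gapdh, B2m and Pgk1. Hypoxia-responsive genes had 4 of 21 (19.0%; 5.45% to 41.9%), Vegfa, a growth factor of blood vessels, Pfkfb3, a regulator of glycolysis, Bnip3l, a mitophagy receptor, and Pgk1, a glycolytic enzyme that is in both lists.

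The shares of cell type genes could not be told apart from the background at these list sizes. None of 15 leukocyte genes with a promoter window had a member there (0%; up to 21.8%), nor any of 12 genes of the SWI/SNF remodeler (up to 26.5%), 6 basal and 7 fibroblast genes. Of myeloid genes 1 of 13 (7.69%) did, Irf8, a factor of monocyte and dendritic cell development on chromosome 8, which also has a larger kept share. Gata3, a factor of luminal epithelium and of T cells, was the only gene with a member among 7 luminal (14.3%) and 11 T and NK cell genes (9.09%). The B cell, endothelial, neuron, liver and muscle lists had 2 genes each with a promoter window and 0 with a member. Within 50 kb, 9.66% of all protein-coding genes had a member, against 4 of 20 T and NK cell genes, 2 of 12 B cell genes, 2 of 20 leukocyte, 2 of 20 myeloid and 2 of 24 luminal genes, and 0 of 14 basal and 0 of 14 fibroblast genes. Epcam had 9 windows and Ptprc, the gene of CD45, 4 windows within 50 kb and neither had a member, counts too small to set apart from the 3.66% of all windows that are members. The intervals of all lists but the immediate early and housekeeping ones span the background of 8.77%, and the lists were not tested.

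The summits at the listed genes varied in layout. At Klf6 the summits lay 0.19 kb upstream and 0.643 kb downstream of the start site, with 43 and 18 CpG. At Klf10 they lay 0.306 kb upstream and 0.455 kb downstream, with 48 and 69 CpG. Egr2 had both summits upstream, at 0.951 and 0.198 kb, as had Fosl2 at 0.738 and 0.166 kb and Egr1 at 0.566 and 0.249 kb. The hypoxia-responsive genes Vegfa (0.437 and 0.137 kb), Pfkfb3 (0.499 and 0.062 kb) and Pgk1 (0.488 and 0.136 kb) had both upstream too. At Irf8 both lay downstream, at 0.028 and 0.203 kb. At Myc, Atf3, Dusp5, Zfp36l2, B2m, Gapdh and Bnip3l 1 summit lay upstream and the other downstream of its nearest start site, each within 0.319 kb of it. At Actb each summit lay upstream of its nearest start site, at 0.073 and 0.024 kb. At Gata3 the member within 1 kb was 0.201 kb upstream and its companion 1.12 kb upstream, where the AP-1, NF-Y and SP and KLF words occurred together.

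The peak with the widest spread of summits covered the start sites of Jun and of BC042782, a processed transcript. Its 5 summits spanned 2536 bp on chromosome 4 (windows from 94717747 to 94720782), and their GC content fell along the chromosome from 62.4% to 49.8%. The 5 windows at Crlf2, which encodes a cytokine receptor subunit, spanned 1684 bp on chromosome 5 and lay 1.98 to 0.292 kb downstream of the start site, 3 of them within 1 kb. The 5 windows of Mepce and Zcwpw1 spanned 1178 bp. The peak at the start site of 2310001H17Rik, a long intergenic non-coding RNA gene, was the poorest in GC and CpG of the peaks named here. Its 4 windows had 43.6% to 50.4% GC and 1 to 11 CpG, with 1 PU.1 site that lay in both of 2 overlapping windows. The peak also held the AP-1, TATA box and TEAD factor words in window b and the IRF factor word in window a. The nearest protein-coding start site, that of the lymphocyte activation gene Cd69, was 36793 to 38259 bp away. Dusp6 and Morf4l1, a chromodomain gene on chromosome 9, had 4 windows. Clcn2 with Polr2h, Rap2b, Bzw2 with Ankmy2, and Tgif1, a repressor in TGF-beta signalling, followed with 3 windows and spans of 1399, 1305, 1282 and 1256 bp. Without chromosomes 7, 8, 9 and X, a peak with 3 windows near Gm17395 took the place of Morf4l1.

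The number of members near a gene was highest around a few gene clusters. Since members come at least 2 to a peak by the rule, these numbers do not count peaks, and gathering was not tested. Of 22350 protein-coding genes, 2159 (9.66%) had a member within 50 kb of a start site. The highest number was 7, at Med19, a subunit of the Mediator complex, and its neighbors Tmx2, Zdhhc5 and Clp1 on chromosome 2, and at Ncoa7 on chromosome 10. Of the windows within 50 kb of Clp1, an RNA kinase, 7 of 8 were members, and of those of Med19 7 of 11. Klf6 had 6 of 18, and Trim7, Trim41 and Gm12184 on chromosome 11 had 6 of 18 each. Ctsh, a cathepsin gene on chromosome 9, had 6 of 21. Without chromosomes 7, 8, 9 and X, Gnb2l1, a ribosomal scaffold gene on chromosome 11, took the place of Ctsh with 6 of 15. Neighboring genes share most of these windows.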

How the data were processed

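The deposited values were of unit other, the window positions in 1 pooled list without a value per cell. Per the methods and labels, the authors aligned reads to mm9 (Bowtie2 2.1.0), marked and dropped duplicates (Picard 1.79), aggregated the cells, called summits at a q threshold of 0.05 in MACS2 (version not given in the sources used here), widened each to 500 bp and kept the 50000 windows of lowest q. A peak with a weaker further summit can therefore appear here with fewer windows than were called. Under this rule the kept share of called peaks still differed between chromosomes (above), and the reason was not tested. Letters distinguish the summits of a peak.

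Windows were grouped by peak number and placed by their center with the NCBIM37 sequence and GENCODE vM1 (promoter, within 1 kb of any start site, then exon, intron, intergenic), counting from 1. GC content, CpG and 23 consensus words were read from both strands of the windows. Python 3.11.15, numpy 2.4.6, pandas 2.3.3, scipy 1.17.1 and matplotlib 3.10.9 were used, and the procedures were tested on simulated data. The members, words and gene lists were chosen with earlier results of these data known. Of 270 listed genes 269 matched, 2 by an older symbol. Named genes are those nearest to the 10 peaks with most windows, listed genes with a member within 1 kb, the 10 genes with most members within 50 kb, each of the first and last also without chromosomes 7, 8, 9 and X, and Epcam and Ptprc; distant peaks were named after their values were seen. Depth cannot be read from the list, and no test was made.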

Additional observations from a re-analysis of the deposited data

How the results depend on the processing

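Leaving out each chromosome in turn moved no value beyond its limit. The limit was a fixed fold change for counts and the exact binomial interval of the main value for shares. For spacing and GC differences it was the standard deviation over single chromosomes (0.0335 kb, 2.07 points between groups and 2.76 points within peaks). Each run leaves out a single chromosome, so values could hardly pass these limits, and staying within them says little. The count of members ran from 1675 to 1797, the median spacing from 0.3585 to 0.364 kb, the promoter share from 82.2% to 83.7%, the GC difference from 10.6 to 11.0 points, the number of 23 words more frequent in members from 10 to 11, the GC difference within peaks from 4.1 to 4.6 points and the gene share from 8.44% to 8.97%. The word share of members minus that of other windows ran from -4.37 to -3.41 points for AP-1, 11.8 to 12.5 for ETS, 8.23 to 9.01 for NF-Y and 18.3 to 19.6 for SP and KLF.

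The promoter share of members was 73.2% with a distance of 500 bp (other windows 19.7%), 86.4% with 2 kb (29.8%) and 80.5% with protein-coding start sites only (22.9%). The GC difference of 10.8 points was 5.8 over 1 kb from a start site and 2.0 within it. The AP-1 difference of -3.73 points was -1.04 within 1 kb, turned to 9.30 over 1 kb and to 0.412 in promoter windows with at least 30 CpG. The ETS difference of 12.2 was 7.57 over 1 kb, 2.81 within it, 5.10 in the central 200 bp and turned to -1.55 in CpG-rich promoters. NF-Y (8.60) gave 5.80, 6.23, 5.08 and 5.20 in these 4 settings, and SP and KLF (19.1) gave 9.44, 8.26, 9.39 and 2.72. RUNX turned from -5.73 to 0.809 over 1 kb and the E-box from 3.30 to -0.607 within 1 kb. In CpG-rich promoters the E-box stood at -1.74, NRF1 turned from 2.48 to -0.165, the TATA box from -10.9 to 0.103 and NFI from -5.96 to 0.277. Over 1 kb from a start site, windows with at least 30 CpG and those with fewer gave differences of -4.51 and 14.5 for AP-1, 6.81 and 5.50 for ETS, 9.19 and 4.56 for NF-Y, -5.24 and 7.39 for SP and KLF, and 0.793 and 2.39 for RUNX. With at least 30 CpG, CEBP turned from 1.62 to -0.966, NRF1 stood at -2.66, TATA at 1.90 and NFI at 1.28, and with fewer YY1 turned to -0.457. Only 59 members had at least 30 CpG at this distance. The CEBP word was in 1 of them (interval 0.0429% to 9.09%) and the NRF1 word in 0 (up to 6.06%). Both intervals span the 2.66% of other windows, so these directions cannot be read. The cause was not tested. The settings within 1 kb and by CpG count were added after the data had been seen. Of the values under settings other than leaving out a chromosome, 67 stayed within the limits named above, 64 moved beyond them and 18 turned around. The limits differ by kind of value, so these counts pool unlike criteria. For words, a turn was counted only where the interval of members left out the share of other windows. It did not for PU.1 and CTCF, so their changes of sign are not among the 18. Turns were counted by sign alone, so a turn can be the loss of a difference. In CpG-rich promoters the intervals of members were 3.71% to 6.49% for AP-1, 21.5% to 26.9% for ETS and 3.62% to 6.38% for NRF1. They span the shares of other windows, 4.55%, 25.7% and 5.03%. Over 1 kb from a start site the RUNX interval (10.37% to 18.35%) spans 13.2%. These 4 directions cannot be read either.

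No paired analysis was possible because all wells form 1 group and 1 pooled list. Intervals take each window as independent although most members overlap another, and the list holds no signal, so whether peaks with several summits differ from others in height could not be read.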
